A study of Oryza sativa Japonica Group with 8 samples.

Results

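The genes described here are 9 rice loci that encode chaperones and folding enzymes of the endoplasmic reticulum (ER) and bZIP50, a transcription factor of the same pathway. They were taken by locus identifier from the probe names, out of 29690 loci on the array. Of the 9 genes, 8 had a probe that could be tested, and together the 9 had 22 probes. The names of 6 were borne out by the reference table, which holds a single gene of that name on the chromosome given in the locus identifier. The names BiP5, calnexin and GRP94 were not found there and are used as the definition of the gene set gives them. The loci are BiP1 (Os02g0115900) on chromosome 2, BiP2 (Os03g0710500) on chromosome 3, calnexin (Os04g0402100) on chromosome 4 and BiP4 (Os05g0428600) on chromosome 5. The others are bZIP50 (Os06g0622700) and GRP94 (Os06g0716700) on chromosome 6, calreticulin (Os07g0246200) on chromosome 7, BiP5 (Os08g0197700) on chromosome 8 and PDIL1-1 (Os11g0199200) on chromosome 11.

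The samples were blades of the fifth leaf of rice, cultivar Hinohikari of the Japonica Group, from plants grown at 25 ºC. The linalool group held 4 samples from plants given 10 µM linalool, a volatile monoterpene alcohol, for 24 h. The control group held 4 samples, which the labels call mock-treated in one field and untreated in another, and which are called mock here. Each sample was a pool of at least 3 plants, so the spread between samples is that between pools. Every mock array lay on 1 slide and every linalool array on the other, so an effect of the slide and one of linalool cannot be told apart.

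Proteins that enter the secretory pathway fold in the lumen of the ER. BiP, an HSP70 chaperone, binds their unfolded stretches, protein disulfide isomerases such as PDIL1-1 form and rearrange disulfide bonds, calnexin and calreticulin hold glycoproteins through their sugars, and GRP94 is the HSP90 of the compartment. When unfolded protein builds up, the membrane kinase and nuclease IRE1 splices the mRNA of bZIP50, and the factor made from the spliced mRNA raises transcription of chaperone genes. In rice this unfolded protein response has been studied in the seed, where storage proteins pass through the ER, and in leaves under chemical ER stress.

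Of the 8 tested genes, 7 were higher after linalool and 1 was lower (limma, adjusted p below 0.05 over all 33120 tested probes). The 7 that rose were bZIP50, PDIL1-1, GRP94, BiP1, calreticulin, BiP5 and calnexin, by 1.76 to 5.34-fold, and the gene that fell was BiP2. Calls were common on these arrays: 28.9% of the 21544 tested genes were called higher and 38.5% lower. The median log2 difference was 1.13 over the 8 genes and -0.10 over all tested genes. The genes were chosen with earlier results of these data known, so their counts and median are a description. Levels are given below as log2 signal relative to each array's 75th percentile, so a level of 0 is the signal at that percentile, and levels of different probes are not comparable with each other. In leaf blades, more RNA per cell and more cells of a type that makes it cannot be told apart.

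The mock arrays had a 75th percentile of processed signal between 849.6 and 999.6, the linalool arrays one between 1092 and 1605, and 73.3% to 77.3% of spots were well above background. The median local background was 26 to 28 on the mock arrays but 19 on each linalool array, and its part in the differences of dim probes such as BiP5 and BiP2 was not tested. The leaf genes RCA, for Rubisco activase, and PsaH, for a photosystem subunit, were well above background on 8 of 8 arrays. When the arrays were scaled to 6 spike-in probes in place of the 75th percentile, the median difference of all genes moved up by 0.64, and 54.0% of genes were called higher. The median over the 8 genes was then 1.77, 7 were called higher and 0 lower, beside 15.2% of all tested genes lower. The arrays do not settle which of the scalings is right.

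The transcription factor bZIP50 showed the largest difference of the 8 genes. Its 1 probe read -1.09, -1.44, -1.51 and -1.61 on mock replicates 1 to 4 and 0.57, 0.36, 1.64 and 1.45 on linalool replicates 1 to 4. The lowest linalool array lay above the highest mock array, and linalool replicates 3 and 4 stood above replicates 1 and 2. The mean rose from -1.41 ± 0.22 (SD, n = 4) to 1.01 ± 0.63 (SD, n = 4), a log2 difference of 2.42 with a standard error (SE) of 0.29, or 5.34-fold (limma, adjusted p = 0.000148). In processed signal, before scaling between arrays, mock arrays spanned 303.3 to 408.9 and linalool arrays 1623 to 5009. The difference lay between 2.04 and 3.06 in the 18 alternative analyses run, and it passed the threshold in each. With 1 probe, the spliced and unspliced forms of the mRNA were not measured apart.

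The disulfide isomerase PDIL1-1 had the smallest adjusted p of the 8 genes. Its brightest probe read 3.15, 2.75, 3.15 and 2.82 on the mock arrays and 4.12, 4.12, 4.31 and 4.40 on the linalool arrays. The groups stood more than a log2 unit of mean difference apart with little spread within either, and they did not overlap. The mean rose from 2.97 ± 0.21 to 4.23 ± 0.14 (SD, n = 4 each), a log2 difference of 1.27 with an SE of 0.13, or 2.41-fold (limma, adjusted p = 4.66e-05). All 3 probes of the gene were called, with log2 differences from 1.24 to 1.27.

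Calreticulin, the soluble lectin chaperone, also separated fully between the groups. Its brightest probe read 4.82, 3.81, 4.09 and 3.93 on the mock arrays and 5.22, 5.09, 5.37 and 5.33 on the linalool arrays. Mock replicate 1 lay nearer to the linalool arrays than to the other mock arrays. The mean rose from 4.16 ± 0.46 to 5.25 ± 0.13 (SD, n = 4 each), a log2 difference of 1.09 with an SE of 0.21, or 2.13-fold (limma, adjusted p = 0.00201). The 5 probes of the gene were all called, with log2 differences from 1.09 to 1.14.

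Calnexin, the membrane-bound relative of calreticulin, had the smallest change among the genes that rose, next to BiP5. Its brightest probe read 3.37, 2.09, 2.28 and 2.25 on the mock arrays and 3.003, 2.89, 3.79 and 3.55 on the linalool arrays. Mock replicate 1 was higher than linalool replicates 1 and 2, so the groups overlapped, while the other mock arrays lay below every linalool array. The mean rose from 2.50 ± 0.59 to 3.31 ± 0.43 (SD, n = 4 each), a log2 difference of 0.81 with an SE of 0.32, or 1.76-fold (limma, adjusted p = 0.0498). That call was at the threshold. It was lost when mock replicate 2, 3 or 4 or linalool replicate 1, 3 or 4 was left out, with log2 differences down to 0.65 and adjusted p up to 0.124 in limma. Without mock replicate 1 the difference was 1.10 (limma, adjusted p = 0.00383).

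GRP94, the HSP90 of the ER, had the widest spread between mock arrays. Its brightest probe read 4.67, 3.03, 3.25 and 3.16 on the mock arrays and 4.54, 4.33, 5.08 and 5.03 on the linalool arrays. Again mock replicate 1 stood within the linalool range and the other mock arrays well below it. The mean rose from 3.53 ± 0.77 to 4.74 ± 0.37 (SD, n = 4 each), a log2 difference of 1.22 with an SE of 0.37, or 2.33-fold (limma, adjusted p = 0.0177). Of its 4 probes, 3 were called, and the other had a log2 difference of 0.90 (limma, adjusted p = 0.0897).

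BiP1, an HSP70 chaperone of the ER, resembled GRP94 across the arrays. Its brightest probe read 5.32, 3.83, 4.12 and 4.06 on the mock arrays and 5.18, 5.04, 5.96 and 5.81 on the linalool arrays. Mock replicate 1 was above linalool replicates 1 and 2, and mock replicates 2 to 4 were below all linalool arrays. The mean rose from 4.33 ± 0.67 to 5.50 ± 0.45 (SD, n = 4 each), a log2 difference of 1.16 with an SE of 0.35, or 2.24-fold (limma, adjusted p = 0.0177). Of its 4 probes, 3 were called. The remaining probe had no value on mock replicate 2, where its spot was marked non-uniform, and a log2 difference of 0.93 (limma, adjusted p = 0.0575).

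**Figure D1:**
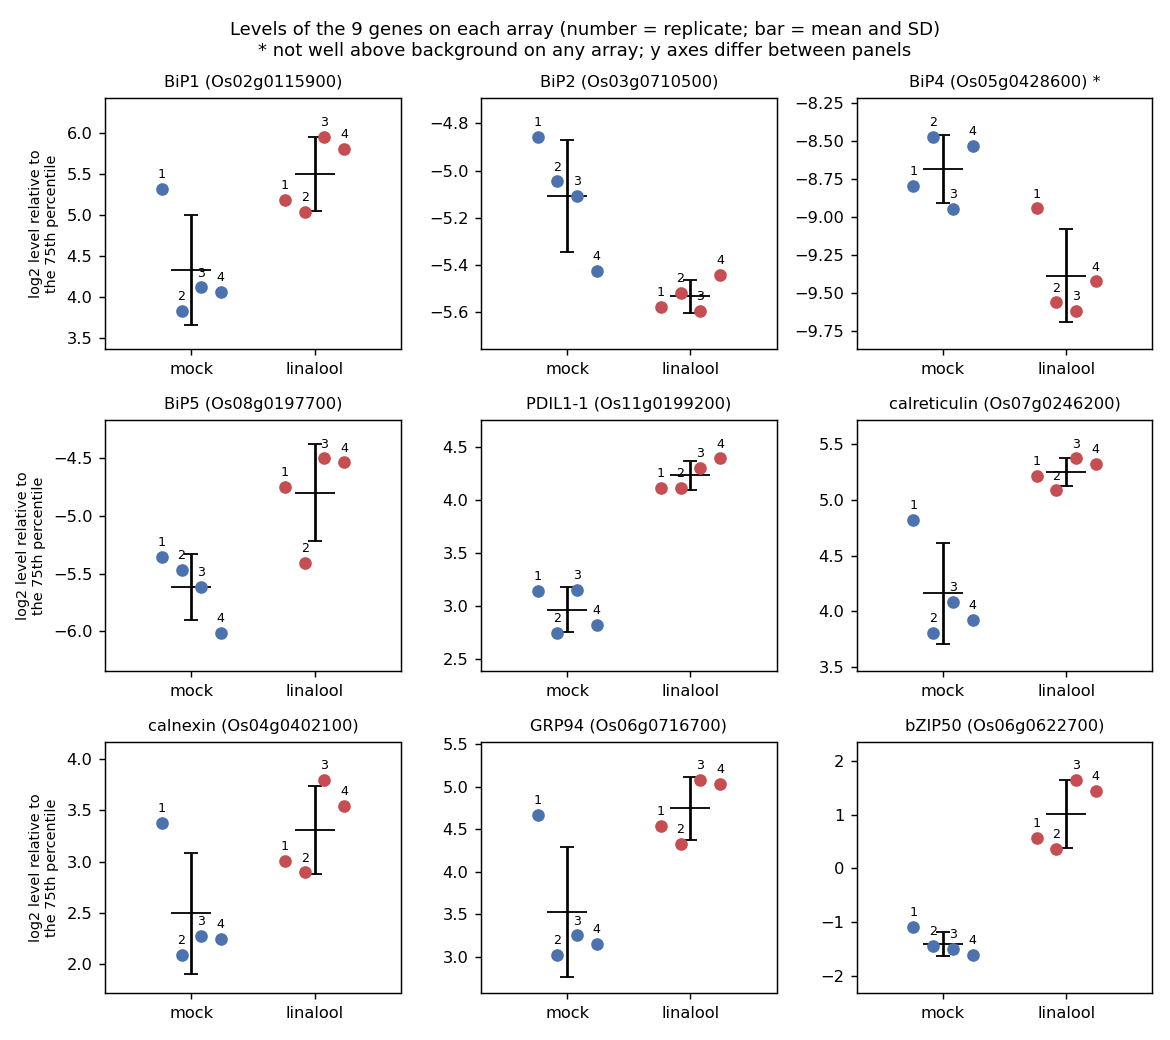
Log2 level relative to the array's 75th percentile (y axes, which differ between panels) for the brightest probe of each of the 9 genes, with 4 mock and 4 linalool arrays as numbered points and the group mean with its SD as black bars. Mock replicate 1 stands apart from mock replicates 2 to 4 in BiP1, calreticulin, calnexin and GRP94, and BiP4 did not rise above background on any array.

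The other BiP loci were dim and did not move together. BiP5 read -5.35, -5.47, -5.62 and -6.01 on the mock arrays and -4.75, -5.41, -4.50 and -4.54 on the linalool arrays, and linalool replicate 2 fell among the mock values. Its mean rose from -5.61 ± 0.29 to -4.80 ± 0.42 (SD, n = 4 each), a log2 difference of 0.81 with an SE of 0.23, or 1.76-fold (limma, adjusted p = 0.012). In processed signal mock arrays spanned only 15.5 to 21.3 and linalool arrays 36.3 to 70.7.

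BiP2 was the 1 gene of the 8 that was called lower, and its direction depended on the scaling. Its probe read -4.86, -5.05, -5.11 and -5.43 on the mock arrays and -5.58, -5.52, -5.60 and -5.44 on the linalool arrays. The groups did not overlap, although mock replicate 4 and linalool replicate 4 nearly met. The mean fell from -5.11 ± 0.24 to -5.53 ± 0.07 (SD, n = 4 each), a log2 difference of -0.43 with an SE of 0.12 (limma, adjusted p = 0.0144). With the spike-in scaling the difference was 0.22 (limma, adjusted p = 0.287), and before scaling the processed signals overlapped, with mock arrays spanning 23.3 to 30.1 and linalool arrays 22.9 to 33.5. BiP4 was not well above background on any of the 8 arrays and was not tested. The BiP loci are close relatives, probe sequences were not analysed here, and signal shared between relatives was not tested.

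Mock replicate 1 set the spread of several of these genes. It was the highest mock array for 7 of the 8 genes, against 35.1% of all tested genes, and PDIL1-1 was the exception. It lay more than 1 log2 unit above the mean of the other mock arrays for 3 of the 8, namely GRP94 at 1.52, BiP1 at 1.32 and calnexin at 1.17, against 3.65% of all tested genes. The deviation was 0.88 for calreticulin, 0.43 for bZIP50, 0.35 for BiP5, 0.34 for BiP2 and 0.24 for PDIL1-1. The gene with the largest difference after linalool, bZIP50, thus deviated less on this array than the 3 chaperones above 1. The labels give no reason for the deviation, and its cause was not tested.

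Leaving out mock replicate 1 raised the differences of all 7 genes that rose. They became 1.60 for GRP94 (limma, adjusted p = 0.00035), 1.49 for BiP1 (limma, adjusted p = 0.00124), 1.31 for calreticulin (limma, adjusted p = 5.37e-05) and 1.33 for PDIL1-1 (limma, adjusted p = 0.000111). The difference of bZIP50 was then 2.52 (limma, adjusted p = 0.000403) and that of BiP5 0.90 (limma, adjusted p = 0.0136). BiP2 stayed lower, at -0.34 (limma, adjusted p = 0.0261). The count was again 7 higher and 1 lower, while 29.7% of all tested genes were called higher and 38.1% lower. When another single array was left out instead, GRP94 and BiP1 kept their calls only narrowly, with adjusted p up to 0.0492 and 0.0487 in limma. With all 8 arrays, 3 of the 8 genes, bZIP50, PDIL1-1 and calreticulin, were higher with no overlap between groups, as were 27.3% of all tested genes. BiP2 was lower with no overlap, as were 36.1% of all tested genes. When normexp background correction was applied to the median signals in place of the processed signal, only these 3 rising genes were called, while 14.3% of all tested genes were called higher and 12.8% lower. There GRP94, BiP1, calnexin, BiP5 and BiP2 lost their calls, at log2 differences of 1.17, 1.13, 0.75, 0.38 and -0.0078.

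**Figure D2:**
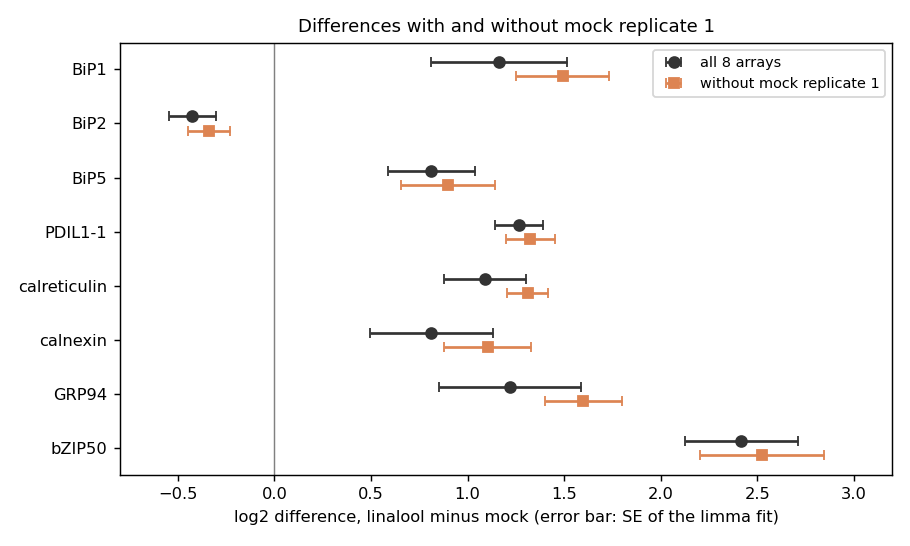
Log2 difference between linalool and mock (x axis, with the SE of the limma fit) for the 8 tested genes, from all 8 arrays (circles) and without mock replicate 1 (squares). GRP94 moves from 1.22 to 1.60 and BiP1 from 1.16 to 1.49, while PDIL1-1 moves only from 1.27 to 1.33.

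The linalool arrays also differed among themselves in a shared order. Linalool replicates 3 and 4 were both above replicates 1 and 2 for 7 of the 8 genes, against 27.8% of all tested genes, and BiP2 was the exception. The mean of replicates 3 and 4 exceeded that of replicates 1 and 2 by 1.08 log2 units for bZIP50, 0.77 for BiP1, 0.72 for calnexin and 0.62 for GRP94. For PDIL1-1 it exceeded it by 0.23 and for calreticulin by 0.20. The cause of this order was not tested.

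Among 21544 genes, the 5 other loci whose levels followed these genes most closely were ranked by Pearson's r with the mean standardised level of the 7 genes that rose, over the 8 arrays. The r is a description, since a difference between the groups, mock replicate 1 and the order of the linalool arrays all enter it. One of them, Os05g0542500, was not well above background on any mock array, so its r of 0.997 rests in part on background values and its rank is not read here. PDIL2-3, a disulfide isomerase of another subgroup, had an r of 0.996 and read 2.83, 1.88, 1.86 and 1.71 on the mock arrays and 3.45, 3.24, 4.10 and 4.01 on the linalool arrays. Like GRP94, it was high on mock replicate 1 and higher on linalool replicates 3 and 4 than on 1 and 2. The ranking favours loci of this shape, so the likeness is not a separate observation. The others were Os04g0583500, Os02g0710900 and Os05g0373000, with log2 differences of 0.39, 0.97 and 0.84.

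The rest of the pathway was read from 26 further loci in 5 lists, chosen from recalled rice locus names. The lists were written with earlier results of these data known, so their counts are a description. The reference bore out 20 of the names. All 26 were tested, 16 were called higher, 2 lower and 8 were not called, with a median log2 difference of 0.63, beside the 28.9% higher and 38.5% lower of all tested genes. With the spike-in scaling 24 were called higher and 1 lower, beside 54.0% and 15.2% of all tested genes. One locus, Os03g0832200, passed the filter through the linalool arrays alone and so had to differ. Over the other 25 loci, 15 were called higher and 2 lower, with a median of 0.57. Loci whose recalled name was not borne out are counted in their list and given by identifier only.

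The disulfide isomerases, relatives of PDIL1-1 that shuffle disulfide bonds in the ER, made up the longest list. Of 12 loci listed with the oxidase that supplies their oxidising power, 10 were called higher and 0 lower. Over all tested genes 28.9% were called higher and 38.5% lower. The other 2, PDIL1-3 and PDIL5-4, were not called at log2 differences of 0.77 and 0.24. A second probe of PDIL1-3 was not well above background on any mock array and passed the filter through the linalool arrays alone. Its difference of 1.41 rests in part on background values, so its call (limma, adjusted p = 0.00381) carries no weight. The median was 0.77. PDIL1-5 rose by 1.74 with an SE of 0.12 (limma, adjusted p = 9.97e-06) and PDIL2-2 by 1.33 with an SE of 0.11 (limma, adjusted p = 2.05e-05). Both differed from GRP94 in the place of mock replicate 1, which lay 0.06 and 0.27 below the mean of the other mock arrays. PDIL1-5 was dim, with a mean level of -5.70 on the mock arrays, and the part of the background in its difference was not tested. With normexp on median signals PDIL1-5 lost its call, at 0.81 (limma, adjusted p = 0.308). PDIL2-1 rose by 0.95 (limma, adjusted p = 0.000347) and PDIL5-1 by 0.78 (limma, adjusted p = 0.000293). Mock replicate 1 was the highest mock array for only 2 of the 12 loci.

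The list of BiP relatives and co-chaperones held 4 loci, of which 2 were called higher and 0 lower. Among all tested genes the shares were 28.9% and 38.5%. ERdj3B, a J-domain protein that delivers substrates to BiP, rose by 1.58 with an SE of 0.38 (limma, adjusted p = 0.00595). As for GRP94, mock replicate 1 stood apart, with 1.27 there, values from -0.42 to -0.22 on the remaining mock arrays, and linalool arrays between 1.26 and 1.99. The locus Os08g0440500 rose by 0.93. BiP3, which the reference holds as a transcribed pseudogene, had a difference of 0.69 (limma, adjusted p = 0.15). Without mock replicate 1 that difference was 1.02 and passed (limma, adjusted p = 0.021). P58A, another J-domain protein, had a difference of 0.13 (limma, adjusted p = 0.134). With the spike-in scaling, where 54.0% of all tested genes were called higher, both passed. BiP3 was then at 1.33 (limma, adjusted p = 0.00851) and P58A at 0.77 (limma, adjusted p = 0.00151). With array weights both passed too, at 1.32 (limma, adjusted p = 0.00236) and 0.15 (limma, adjusted p = 0.0329). Calls were more common there, at 25225 of 33120 tested probes against 22304 without weights.

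Among the sensors and membrane-bound factors of the response, the differences were smaller than that of bZIP50. IRE1, the enzyme that splices bZIP50 mRNA, had a difference of 0.20 with an SE of 0.11 and was not called (limma, adjusted p = 0.143). It was called with the spike-in scaling, at 0.84 (limma, adjusted p = 0.00274), where 54.0% of all tested genes were called higher. With array weights IRE1 was called too, at 0.29 (limma, adjusted p = 0.0147), where 25225 of 33120 tested probes were called. The membrane-bound bZIP factors bZIP60 and bZIP39 rose by 0.71 (limma, adjusted p = 0.0111) and 0.24 (limma, adjusted p = 0.0295). The call of bZIP39 was lost without mock replicate 1 (limma, adjusted p = 0.0514), and likewise without mock replicate 2 or 4 or linalool replicate 3 or 4, with adjusted p up to 0.0861 in limma. Normexp on median signals also lost it, at 0.30 (limma, adjusted p = 0.0687). Os02g0191600, of the same list, fell, with a difference of -1.99.

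The reference did not bear out the names of 2 further loci listed as calreticulins. Both were called higher, beside 28.9% of all tested genes. Os05g0507300 rose by 0.76, and Os03g0832200, not well above background on any mock array, was at least 1.58-fold higher after linalool. The latter entered the test through the linalool arrays alone, so its call carries no weight.

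The list of ER-associated degradation, which removes proteins that fail to fold, had the lowest median log2 difference of the lists, at -0.03. None of its 4 loci was called higher and 1 was called lower, beside 28.9% higher and 38.5% lower of all tested genes. With 4 loci, these counts are not read as a result. HRD1, its ubiquitin ligase, and SEL1L, the partner of that ligase, had differences of 0.04 and -0.01 (limma, adjusted p = 0.791 and 0.943). DER1, a membrane protein of the same machinery, fell, with a difference of -1.40 (limma, adjusted p = 0.0284). It was dim, well above background on 2 of the 4 linalool arrays, and highest on mock replicate 1, with -4.34 there and values from -6.69 to -5.61 on mock replicates 2 to 4. Its call was lost without mock replicate 4 or linalool replicate 1 or 2, with adjusted p up to 0.0718 in limma, with quantile or spike-in scaling, with normexp on median signals, and with the replicate number as a block (limma, adjusted p = 0.0542). With the spike-in scaling SEL1L and HRD1 were called higher, at 0.63 (limma, adjusted p = 0.0113) and 0.68 (limma, adjusted p = 0.0072). The median log2 difference of all tested genes was then 0.54, and 54.0% of them were called higher. HRD1 was also called with array weights, at 0.22 (limma, adjusted p = 0.0491), where 25225 of 33120 tested probes were called.

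**Figure D3:**
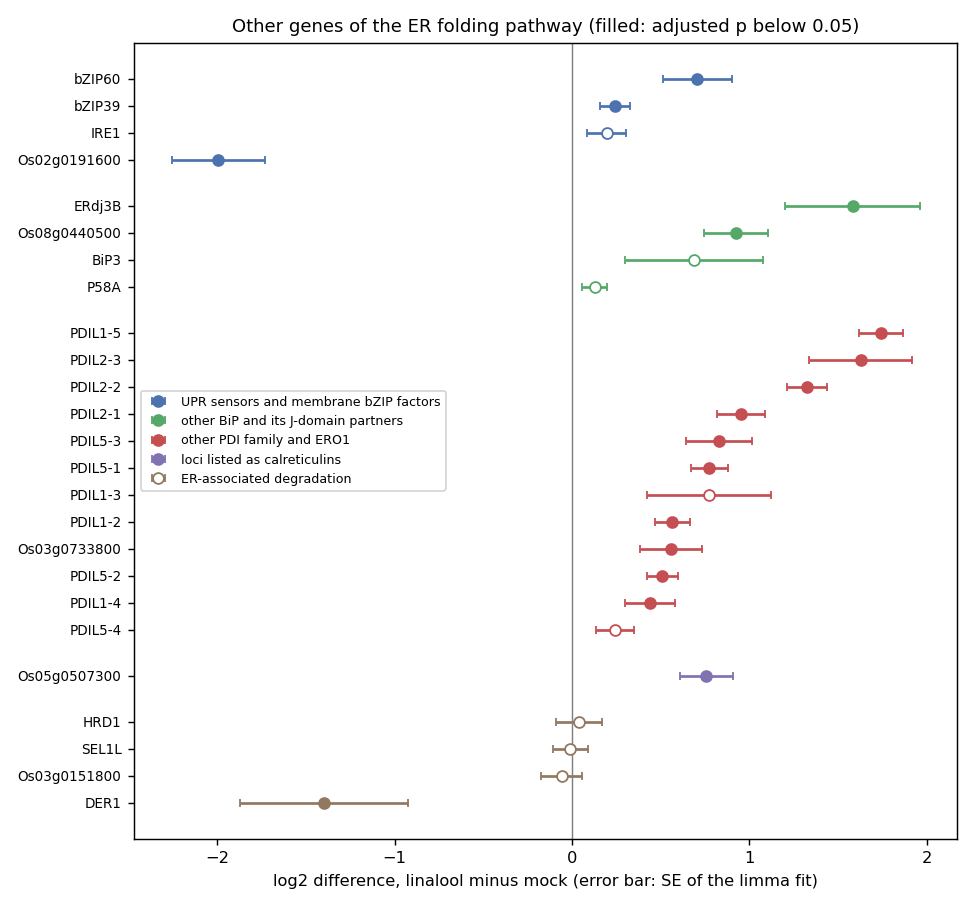
Log2 difference between linalool and mock (x axis, with the SE of the limma fit) for 25 further ER loci, coloured by list, filled where the adjusted p was below 0.05. Os03g0832200 is left out because its fold is a bound. The disulfide isomerases lie between 0.24 and 1.74, and the degradation genes apart from DER1 lie close to 0.

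**Figure D4:**
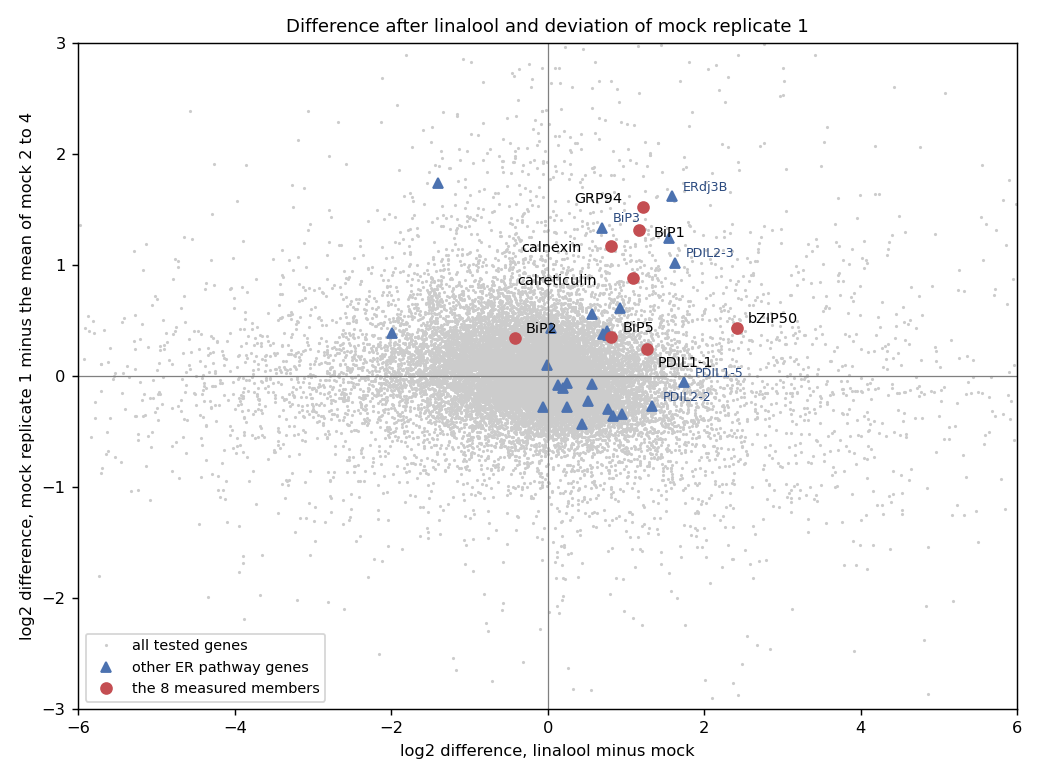
Log2 difference between linalool and mock (x axis) against the log2 difference between mock replicate 1 and the mean of mock replicates 2 to 4 (y axis) for the 8 tested genes (circles), the 26 further ER loci (triangles) and all tested genes (grey), of which 223 lie outside the axes. GRP94, BiP1 and calnexin lie above 1 on the y axis with the further loci ERdj3B, BiP3, PDIL2-3, Os03g0832200 and DER1. Of these, DER1 is the highest at 1.74 and fell after linalool. Os03g0832200 was not well above background on any mock array, so its place on both axes rests in part on background values. The gene bZIP50, at 2.42 on the x axis, lies at 0.43.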

How the data were processed

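Single-colour arrays were measured on 4 mock and 4 linalool samples. Per the labels' protocols, 100 ng of RNA was labelled with Cy3. The deposited intensity values are, per the file headers, the background-corrected processed signal of Agilent Feature Extraction 10.7.3.1. The authors' deposited series matrix holds the same intensity values times 1 constant per array.

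Log2 signals were scaled by subtracting the 75th percentile of each array. Non-uniform spots were left out and spots of 1 probe averaged. The filter kept 33120 of 42477 probes, those above background (the software's flag) on 4 or more of the 8 arrays. Groups were compared by limma 3.58.1 (R 4.3.3) with Benjamini-Hochberg adjustment. The brightest tested probe stood for a gene. Folds against a group below background are bounds: the mean of the bright group is set against a floor on each dim array, which is the weakest signal flagged above background there, or the probe's value where that is larger. The script was tested on simulated data. The number of arrays limits the precision.

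The members and lists were chosen with earlier results of these data known. Named genes were all members, the 5 loci most like them, and in each list up to 4 genes with a borne-out name and the smallest p. Loci named outside the rule, because few were called, were chosen after their values were seen. Symbols are recalled names checked against the RefSeq table of assembly ASM3414082v1. Sequences and coordinates are not used here, and the planned motif and protein comparisons were not run.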

Additional observations from a re-analysis of the deposited data

Results flagged for a closer look

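In 58 groups of 4 arrays, 6 held an array that stood apart from the others by Dixon's criterion, and chance alone gives about 1 in 20. All groups were read on the same 8 arrays, and some genes varied together within groups, such as calnexin and GRP94 (r of 0.98). The groups are therefore not independent, and the count is not read as a test against that share. Mock replicate 1 was the high array in 4 of the 6. Calnexin read 3.37 there against 2.09 to 2.28 on the other mock arrays. GRP94 read 4.67 against 3.03 to 3.25. ERdj3B read 1.27 against -0.42 to -0.22, and PDIL2-3 read 2.83 against 1.71 to 1.88. In the linalool group, PDIL1-2 read -2.81 on replicate 2 against -2.96 to -2.95, and PDIL1-5 read -4.10 on replicate 1 against -3.91 to -3.90. These last gaps were under 0.2 log2 units.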

How the results depend on the processing

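Of 144 values of the 8 genes across 18 alternatives, 143 kept their direction and 129 also their side of the threshold. Normexp background correction on median signals, which changes the signal and the correction together, lowered the counts most, to 9403 of 33120 probes against 22304, 3 of the 8 genes (bZIP50, PDIL1-1 and calreticulin) against 8, and 10 of 26 pathway loci against 18. Calls were lost there for BiP1 at 1.13, GRP94 at 1.17, calnexin at 0.75, BiP5 at 0.38 and BiP2 at -0.0078, and SEL1L was 0.23 and HRD1 -0.037. BiP2 was -0.068 and uncalled with quantile normalisation, and 0.22 with spike-in scaling. SEL1L, -0.01 in the report, was 0.15 with quantile normalisation, 0.63 with spike-in scaling, 0.055 in the deposited matrix and 0.090 with array weights. The share of calls that were higher was 42.2%, but 77% with spike-in scaling. The spike-in scaling subtracts another constant from each array, so it moved differences up by 0.64 alike where no array lacked a value. The normexp run also added an offset of 50, and an added constant makes log2 differences of dim probes smaller. The share of that offset in the changes was not tested, nor was the cause of the others.

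Replicate numbers do not pair the arrays: deviations of same-numbered arrays correlated at -0.11 to 0.17. With the replicate block calnexin, at 0.81, lost its call (limma, adjusted p = 0.0794), as did DER1 at -1.40 (limma, adjusted p = 0.0542), 21245 probes were called, and 16 pathway loci. With no filter on dim probes calnexin, at 0.81, also lost it (limma, adjusted p = 0.0549).

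Leaving out 1 array gave 20501 to 22445 probes, 7 to 8 genes and 16 to 19 pathway loci. Calnexin ran from 0.65 to 1.10, BiP1 from 1.00 to 1.49, GRP94 from 1.05 to 1.60, HRD1 from -0.017 to 0.15 and SEL1L from -0.048 to 0.063. The adjusted p of BiP1 and GRP94 reached 0.0487 and 0.0492 in limma, just under the threshold. Dim probes such as BiP5 and BiP2 are limited by signal over background.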
